A study of Mus musculus with 2 samples.

Results

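Cdkn1a, Ccng1, Plk2, Btg2, Phlda3, Ddit4l, Sesn1, Sesn2, Zmat3 and Gdf15 are mouse genes that p53 is known to switch on to arrest the cell cycle, restrain growth or answer stress. These 10 genes, of 16388 named on the array, were described in Flk-1-positive early mesodermal cells with a disrupted AU019823 gene. Their probes were found by gene symbol in the platform annotation, which names 9 of the 10 as printed here and lists Zmat3 under its older symbol Wig1. The array carries 1 named probe for each. The genes were chosen by name with their log2 differences between these arrays already known, and their probes selected on mean spot signal. Those differences are therefore given as a description and support nothing by themselves.

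The gene-trapped sample came from embryonic stem cells in which an inserted trap cassette interrupts AU019823 on both alleles. The revertant sample came from their revertant cells, which the labels describe as nearly wild type. Both were grown with OP9 stromal cells, a mouse bone marrow line that supports blood formation, for 4 days per the protocol and to day 4.5 per the sample descriptions, and were then sorted for Flk-1, the receptor encoded by Kdr. RNA came from 300000 gene-trapped and 350000 revertant cells, and 1 array was hybridised per group. The samples carry different codes, cl.3 for gene-trapped and cl.4 for revertant, whose meaning is not stated. If they name clones, an effect of clone and one of genotype cannot be told apart. With no replicate there is no spread between cultures, so differences carry no p-value and compare these 2 libraries only.

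p53 is a transcription factor that is kept scarce by the ubiquitin ligase Mdm2 and accumulates after DNA damage and other stress. It binds DNA as a tetramer, at paired copies of a short consensus called the half-site. Some of its targets stop the cell cycle, some lower Akt or mTORC1 signalling, which drives growth, and others promote apoptosis. In mouse embryonic stem cells p53 is also known to promote differentiation, in part by repressing Nanog.

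The promoter windows of the genes were searched for that consensus. Sites of this kind are part of why some of the members are known as p53 targets, so the matches are not independent of the choice of genes and are given as a description. RefSeq windows on GRCm38.p6 run from 250 bases before to 50 after an annotated start. There were 12 windows for 9 of the 10 genes, and Zmat3 had none in the table. An exact half-site was found in 4 windows, one each of Cdkn1a, Ccng1, Ddit4l and Sesn1, and 8.36% of all 32851 windows hold one. A full site was counted as a pair of half-sites with 0 to 13 bases between them, at most 2 mismatches in the pair and the central C and G of each kept. By that rule 3 windows, those of Cdkn1a, Ccng1 and Sesn1, held full sites, 2 in each, against 4.09% of all windows with any. The consensus reads the same on both strands, so a match counts for both, and every exact half-site within a full site was counted in both searches. A match describes these letters only.

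The windows with a match are printed because they hold the sites and belong to 3 of the genes past 2-fold and to Sesn1, which was not. Capitals mark the full site with the shortest gap, or the half-site where there was no full site.
Cdkn1a, upstream start, chr17:29090729-29091028, plus strand: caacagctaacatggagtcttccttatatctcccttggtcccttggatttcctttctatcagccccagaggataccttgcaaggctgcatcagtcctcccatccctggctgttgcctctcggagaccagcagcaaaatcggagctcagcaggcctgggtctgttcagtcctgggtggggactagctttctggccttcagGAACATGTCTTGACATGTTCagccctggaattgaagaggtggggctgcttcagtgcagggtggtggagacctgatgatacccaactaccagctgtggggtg
Ccng1, chr11:40755237-40755536, minus strand: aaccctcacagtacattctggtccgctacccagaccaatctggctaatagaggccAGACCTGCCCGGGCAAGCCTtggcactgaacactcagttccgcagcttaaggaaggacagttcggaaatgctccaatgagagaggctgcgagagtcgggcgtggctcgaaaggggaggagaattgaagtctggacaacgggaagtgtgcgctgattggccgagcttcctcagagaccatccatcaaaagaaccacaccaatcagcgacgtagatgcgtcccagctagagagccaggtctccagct
Ddit4l, chr3:137623422-137623721, plus strand: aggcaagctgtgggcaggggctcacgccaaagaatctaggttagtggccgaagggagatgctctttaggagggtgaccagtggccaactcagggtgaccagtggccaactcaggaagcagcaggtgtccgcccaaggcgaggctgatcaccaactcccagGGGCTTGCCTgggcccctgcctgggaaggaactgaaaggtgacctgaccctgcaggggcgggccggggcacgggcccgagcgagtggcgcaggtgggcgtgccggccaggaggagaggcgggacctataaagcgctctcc
Sesn1, downstream start, chr10:41887189-41887488, plus strand: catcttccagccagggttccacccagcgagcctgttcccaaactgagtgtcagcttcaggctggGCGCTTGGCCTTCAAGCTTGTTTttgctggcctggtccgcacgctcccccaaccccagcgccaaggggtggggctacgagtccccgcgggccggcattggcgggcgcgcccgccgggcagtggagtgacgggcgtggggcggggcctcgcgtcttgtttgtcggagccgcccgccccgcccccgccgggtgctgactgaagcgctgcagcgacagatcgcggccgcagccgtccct

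In the Cdkn1a window the marked full site has no gap and 1 mismatch and begins 51 bases before the upstream start, at chr17:29090928-29090947. A further exact half-site begins 73 bases before that start. With the exact half-site at 51 bases it forms the other full site of this window, which has a gap and no mismatch. The window of the other annotated Cdkn1a start held none. The marked full site of Ccng1 also has no gap and 1 mismatch and begins 195 bases before the start, at chr11:40755462-40755481. The half-site of Ddit4l begins 90 bases before the start, at chr3:137623582-137623591. In Sesn1 the marked site has a gap of 3 bases and 2 mismatches and begins 186 bases before the start, at chr10:41887253-41887275. The windows of Phlda3, Plk2, Btg2, Sesn2 and Gdf15 held neither kind of site, which says only that these letters are not within those 300 bases. The sequence TATAAA, on either strand, lay in the window of Ddit4l alone among the 12, against 13.6% of all windows. GGGCGG, on either strand, lay in 8 of the 12, against 35.7% of all windows.

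The arrays had similar shares of measurable probes. Of 23472 probes, 82.6% on the gene-trapped and 83.9% on the revertant array exceeded the mean of the blank spots by more than 2 SD, which is the background limit used throughout. The median spot signal was 38.6 intensity units on the gene-trapped and 47.5 on the revertant array, and quantile normalization removes that difference. The SD of the log2 ratio over 24 positive control spots was 0.108 for one control and 0.0989 for the other, which measures spots on a slide and not cultures. AU019823, named Nkapd1 in RefSeq, had log2 signals of 8.49 in gene-trapped and 8.88 in revertant cells; where its probe lies relative to the trap is unknown, so it does not check the labels. All 8 early mesoderm markers examined, Kdr among them, were above background on both arrays.

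Among the 10 genes, 6 were at least 2-fold higher in gene-trapped cells: Ccng1, Phlda3, Ddit4l, Cdkn1a, Plk2 and Zmat3. Over all 13714 named genes above background on both arrays, 46 or 0.335% were at least 2-fold higher. No member was 2-fold lower, against 1.08% of those genes. Since the genes were grouped with these values known, nothing is read from the contrast of those shares. The other 4, Btg2, Sesn2, Gdf15 and Sesn1, had log2 differences between 0.33 and -0.09. All 10 were above the background limit on both arrays, and also above a stricter one of 5 SD. The median log2 difference of the 10 was 1.23, against 0.0080 for all 13714 genes. Differences are normalized log2 signals, gene-trapped minus revertant, with 50 units added before the log, which makes the folds of dim genes smaller. In this bulk RNA, a change in the number of cells that express a gene and a change in RNA per cell cannot be told apart.

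**Figure D1:**
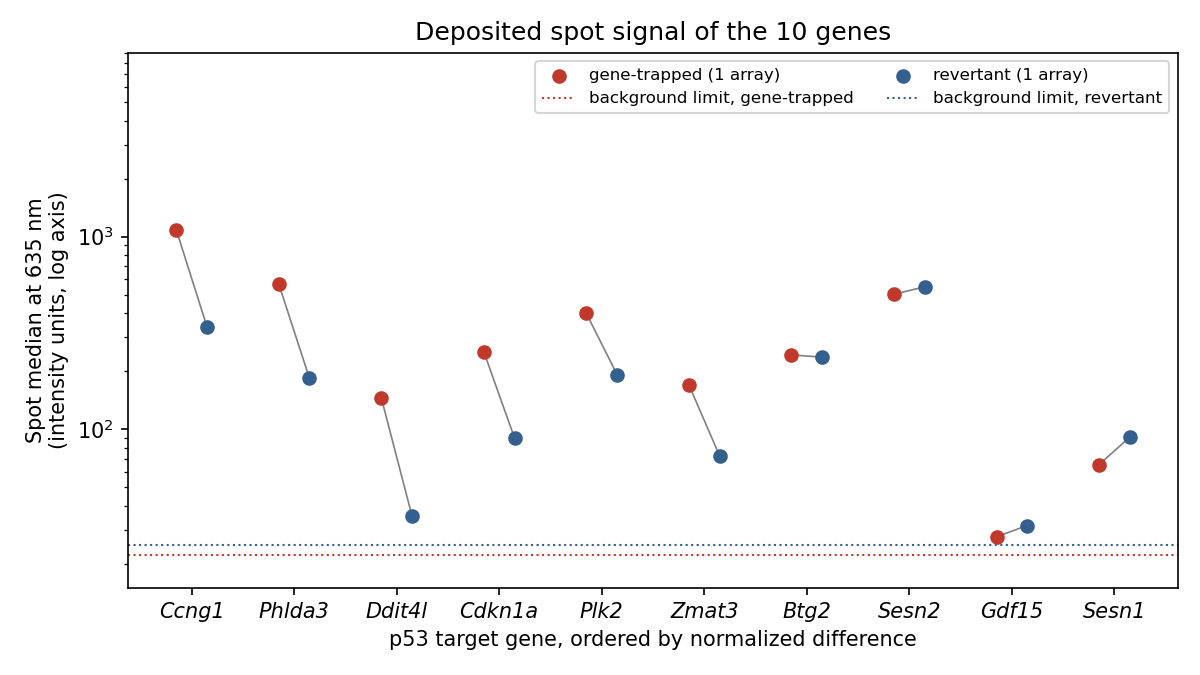
Deposited spot median (intensity units, log axis) of each gene on the gene-trapped array (red) and the revertant array (blue), 1 array each, joined by a line and ordered by normalized difference. Dotted lines are the background limits. Ccng1, Phlda3, Ddit4l, Cdkn1a, Plk2 and Zmat3 have a red point well above the blue one, and Gdf15 lies near the limits on both arrays.

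Of the 4 genes that act on the cell cycle, Ccng1, Cdkn1a and Plk2 were past 2-fold and Btg2 was not. Ccng1 encodes cyclin G1, which binds phosphatase PP2A and takes part in feedback to Mdm2. It had a spot signal of 1088 in gene-trapped cells and 341 in revertant cells. The normalized log2 signal was 10.25 in gene-trapped and 8.40 in revertant cells, a difference of 1.85 (3.60-fold higher). It ranked 6 among the 13714 genes by difference, the highest of the 10, but 162 when the scanner's local background was subtracted.

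Cdkn1a encodes p21, the inhibitor of cyclin-dependent kinases through which p53 halts the cell cycle. Its signal was 252 in gene-trapped cells and 89.7 in revertant cells. The log2 difference was 1.50 (2.83-fold higher), rank 11. Ccng1 and Cdkn1a are the genes whose windows, printed above, hold a full site without a gap.

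Plk2, a polo-like kinase that acts in centriole duplication and is induced by stress, had 399 units in gene-trapped cells and 192 in revertant cells. Its log2 difference was 1.24 (2.36-fold higher), rank 22. Btg2 slows proliferation and recruits the CCR4-NOT complex that shortens mRNA tails. Its signal was nearly the same on both arrays before normalization, 243 in gene-trapped cells and 236 in revertant cells. After normalization the log2 difference was 0.33 (1.26-fold higher), rank 1174.

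The genes that act on Akt and mTORC1 signalling split. Phlda3 encodes a small protein with a pleckstrin homology domain that competes with Akt for membrane lipids and so restrains it. It had 569 units in gene-trapped cells and 183 in revertant cells. The log2 difference was 1.74 (3.35-fold higher), rank 7.

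Ddit4l, also called REDD2, encodes an inhibitor of mTORC1. It had 146 units in gene-trapped cells and 35.3 in revertant cells, where the background limit was 25.0. The log2 difference was 1.62 (3.07-fold higher), rank 9. Because the revertant signal is close to the limit, the size of this fold depends on the processing: in the authors' processed values, which have no added offset, it was 107 in gene-trapped and 8.48 in revertant cells, or 12.6-fold higher.

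The sestrins, which bind GATOR2 and hold back mTORC1 when amino acids are short, were not past 2-fold. Sesn1 had 65.4 units in gene-trapped cells and 90.8 in revertant cells, and a log2 difference of -0.09 (1.06-fold lower) once the arrays were normalized. Sesn2, whose human counterpart senses leucine, had 502 units in gene-trapped cells and 549 in revertant cells. Its log2 difference was 0.14 (1.10-fold higher). Both differences are small. That of Sesn1 was below the technical spread of the control spots and that of Sesn2 just above it, a spread taken before normalization. Without replicates these differences show neither a change nor its absence. The Sesn1 window printed above holds a full site, and Sesn1 was not past 2-fold.

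Of the remaining members, Zmat3 encodes a zinc finger protein that binds RNA. It had 170 units in gene-trapped cells and 72.5 in revertant cells. The log2 difference was 1.22 (2.34-fold higher), rank 24. Gdf15 encodes a secreted stress cytokine of the TGF-beta superfamily. Its signal was 27.5 units in gene-trapped cells, against a limit of 22.3 on that array, and 31.5 in revertant cells, against a limit of 25.0. Its log2 difference was 0.02. Signals this near the blank level leave little room for a difference to appear. Gfral, the receptor of Gdf15, had a log2 difference of 0.01 and also stood near the limit, and its partner Ret was not above it on both arrays.

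**Figure D2:**
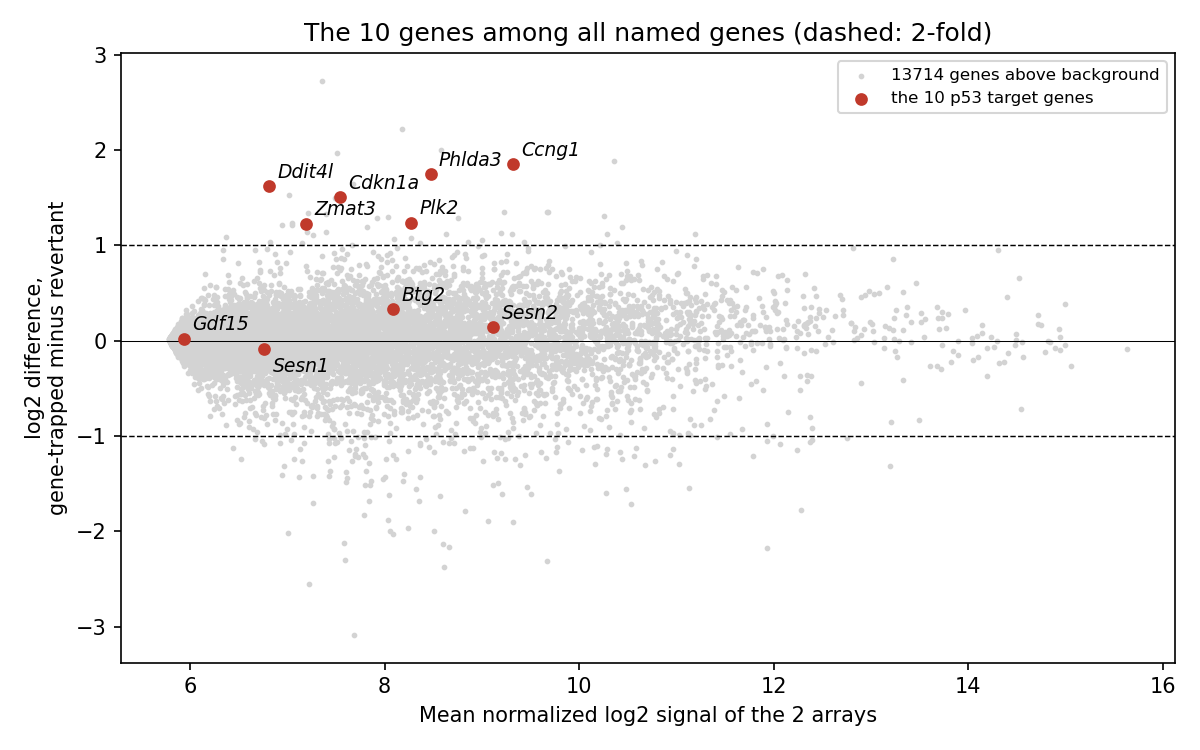
Normalized log2 difference, gene-trapped minus revertant, against the mean log2 signal of the 2 arrays for the 13714 named genes above background (grey) and the 10 p53 targets (red). Dashed lines mark 2-fold. The 6 higher genes lie between 1.22 and 1.85, and Btg2, Sesn2, Gdf15 and Sesn1 lie within the grey band.

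The members therefore fall into a set of 6 with differences from 1.22 (Zmat3) to 1.85 (Ccng1) and a set of 4 from -0.09 (Sesn1) to 0.33 (Btg2). Of the 9 pairs of neighbours in the order by size, 3 were closer than the technical spread of 0.108, namely Plk2 and Zmat3 (1.24 and 1.22), Ccng1 and Phlda3 (1.85 and 1.74) and Gdf15 and Sesn1 (0.02 and -0.09), so the order within those pairs is not resolved. The other 6 gaps ran from 0.119 to 0.894, and no spread between cultures is known to set them against. The spread of 0.108 is that of 1 spot's log2 ratio, whereas a gap between 2 genes carries the spread of 2 spots. The order within the closer of these 6 pairs is thus not resolved either. That spread was also taken from spot signals without offset or normalization. The gaps are between normalized differences with the offset, which makes those of dim genes such as Gdf15 smaller. The order also changed with the processing, and in the authors' table Ddit4l stood first at 3.66. The split lies where the gap is widest, between Zmat3 and Btg2. The spots of the 10 genes lie in 10 different print blocks of the 24 on the array. The median log2 difference over all probes of those blocks ran from -0.01 to 0.02.

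The scanner's local background column moved with the same split. Beside the spots of the 6 higher genes it was 1.46 to 3.48 times as high on the gene-trapped as on the revertant array, and beside the other 4 it was 0.671 to 1.11 times as high. Cdkn1a had local background values of 174 on the gene-trapped and 63.9 on the revertant array. Over all 13714 genes the median of that ratio was 0.829. The column followed spot brightness, with a correlation of log2 values over 23472 probes of 0.956 on the gene-trapped and 0.975 on the revertant array, where probes share the array and its scan. When it was subtracted, Phlda3 at 1.47 and Ccng1 at 1.27 were still at least 2-fold higher, so 2 of the 10 were past that line, against 2.04% of all genes in that setting. Plk2 then had 0.83, Ddit4l 0.64, Zmat3 0.61 and Cdkn1a 0.59, while Btg2 had -0.08 and Sesn2 -0.25. By difference among the 13714 genes Phlda3 then ranked 124, Ccng1 162, Plk2 406, Ddit4l 595, Zmat3 633 and Cdkn1a 655, against ranks of 7, 6, 22, 9, 24 and 11 in the main setting. The part of local background in the differences was not tested otherwise.

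**Figure D3:**
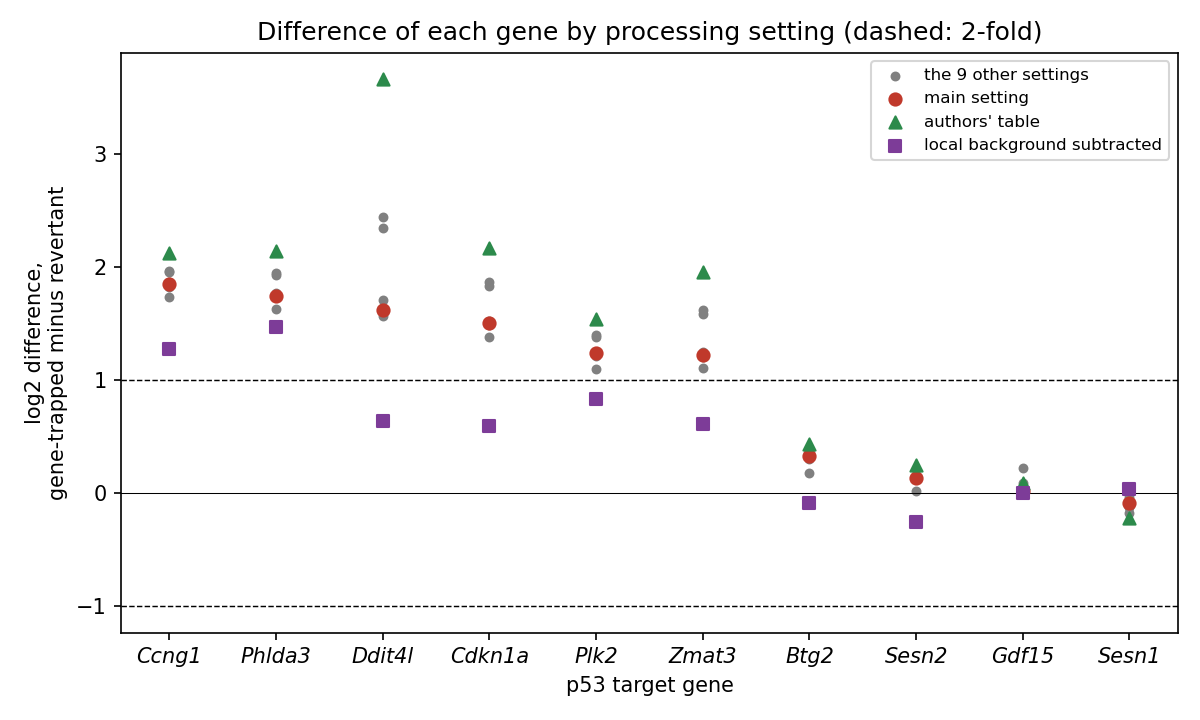
Log2 difference, gene-trapped minus revertant, of each gene in the main setting (red circles), in the authors' table (green triangles), with local background subtracted (purple squares) and in the 9 other settings (grey). Dashed lines mark 2-fold. The 6 genes on the left stay above 0 in all 12 settings shown, and in all but the local background setting they stay above 2-fold.

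In the authors' processed table the same 6 genes were past 2-fold, against 2.01% of the 14163 genes that have values for both samples there. Cdkn1a was 4.48-fold higher there, Phlda3 4.42-fold, Ccng1 4.35-fold, Zmat3 3.88-fold and Plk2 2.90-fold. Btg2 was 1.35-fold and Sesn2 1.19-fold higher, Gdf15 1.07-fold higher and Sesn1 1.16-fold lower. Set against the scanner files, that table is the spot signal less a constant near the blank level and divided by 1 factor per array. It thus lacks the offset, and its folds are wider for the dim genes by construction.

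Genes related to the members, by family or by name, were measured on the same arrays. Of 24 listed, 22 had a probe and 20 were above background on both arrays. None of the 20 was at least 2-fold higher or lower, and their median log2 difference was -0.00133, with 10 genes above 0 and 10 below. The other members of the p21 family lay opposite to Cdkn1a in sign: Cdkn1c, an imprinted inhibitor of the cell cycle, had -0.82, with spot signals of 802 in gene-trapped and 1705 in revertant cells, and Cdkn1b, which encodes p27, had -0.65. Ccng2, the closest relative of Ccng1, had -0.03, and the cyclin gene Ccni had -0.65, or 0.05 with local background subtracted.

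Phlda1 and Phlda2, relatives of Phlda3, had 0.35 and 0.51. Ddit4, the paralog of Ddit4l that also inhibits mTORC1 and is induced by hypoxia and stress, had -0.02, with spot signals of 319 in gene-trapped and 402 in revertant cells. Sesn3 had -0.02. The polo-like kinase genes had 0.16 (Plk1), 0.03 (Plk3) and 0.31 (Plk4). Btg1 had -0.71, Btg4 0.16, Tob1 0.00158 and Tob2 0.12, and Zmat5 and Zmat2 had 0.45 and 0.38. Zmat1 had -0.04 and Zmat4 -0.00423. With local background subtracted Zmat5 had -0.23. Inhba, a TGF-beta family ligand gene set beside Gdf15, had -0.07. In the main setting the 6 higher members are those past 2-fold and no relative was past it. Each of the 6 stood above its relatives by that definition. The differences between probes were not tested. Some relatives lay near the background limits, where little difference can appear. Zmat1 had 28.6 units in gene-trapped and 35.9 in revertant cells, and Zmat4 had 31.0 in gene-trapped and 37.3 in revertant cells.

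**Figure D4:**
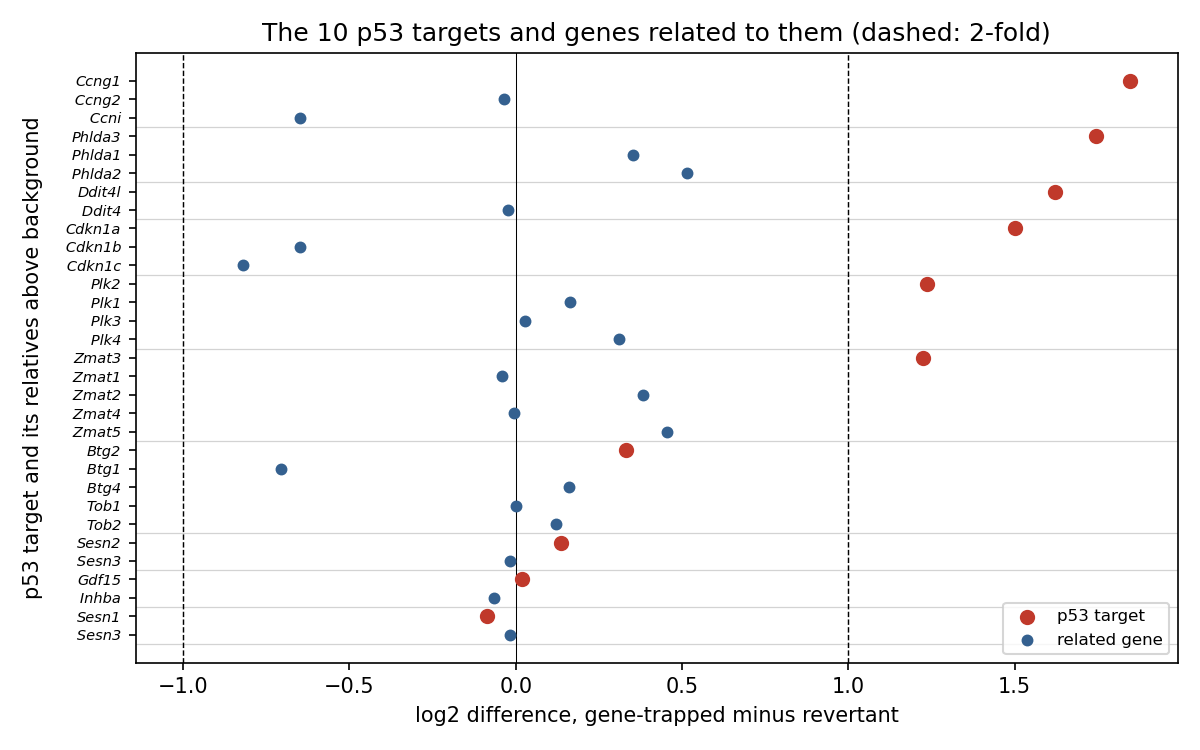
Log2 difference, gene-trapped minus revertant, of each p53 target (red) above the related genes that were above background on both arrays (blue). Dashed lines mark 2-fold. Ccng1, Phlda3, Ddit4l, Cdkn1a, Plk2 and Zmat3 lie right of the 2-fold line and no related gene does.

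Other known p53 targets, which act mainly in apoptosis, DNA repair and metabolism, gave a mixed result. Of 38 listed, 35 had a probe and all 35 exceeded the background limit. A difference of 2-fold or more was seen upward in 5, against 0.335% of all genes, and downward in 0, against 1.08%. Of the 35, 24 lay above 0, as did 53.3% of all genes. Perp, a membrane protein of apoptosis and cell adhesion, had a log2 difference of 1.33, with 208 units in gene-trapped and 84.2 in revertant cells. The sulfatase gene Sulf2 had 1.21, Trp53inp1, whose product acts in p53-dependent death and autophagy, had 1.19, and Ei24, which acts in apoptosis and autophagy, had 1.12. Gtse1, named because it completes the 5, had 1.06. The median of the 35 was 0.21, against 0.0080 for all genes and 1.23 for the 10 members. These counts depend on the processing. With local background subtracted 0 of the 35 were at least 2-fold higher, against 2.04% of all genes, and Ei24 had 0.85, Gtse1 0.73, Trp53inp1 0.71, Perp 0.58 and Sulf2 0.52. In the authors' table, upward differences of 2-fold or more numbered 14, against 2.01% of all genes, and downward ones 2, against 4.02%. The 2 lower ones were Ddb2 and Cd82, at -1.22 and -1.13 on the log2 scale there. Their spot signals of 26.1 and 24.8 in gene-trapped cells were near the limit of 22.3. This list too was drawn up with results of these arrays known.

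Among 22 genes that control p53 or are its partners, 20 had a probe, 17 were above background on both arrays and none was 2-fold apart. Mdm2, which is both the main inhibitor of p53 and its target and stands on both lists, had a log2 difference of 0.59 (1.50-fold higher), with 527 units in gene-trapped and 414 in revertant cells. The ubiquitin ligase gene Rchy1 had -0.34, the deubiquitinase gene Usp7 0.32 and the checkpoint kinase gene Chek2 0.31. The p53 relatives Trp63 and Trp73 were not above background on both arrays. Trp53 itself was not analysed here. The median of the 17 was 0.08.

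Genes downstream of p21 did not share 1 direction. Of 20 measured genes that p53 and p21 are known to repress, most of them acting in mitosis, none was 2-fold apart, 10 lay above 0 and 10 below, and the median was -0.02. The mitotic checkpoint gene Bub1 had -0.75 and Cenpf -0.55, whereas the survivin gene Birc5 had 0.52 (-0.33 with local background subtracted) and the phosphatase gene Cdc25a 0.50. With local background subtracted 1 of the 20, Tacc3, was at least 2-fold lower at -1.08, against 1.35% of all genes. Of 15 measured partners of p21, the kinases, cyclins and pocket proteins it acts through, none was 2-fold apart and the median was 0.04. Ccne1 and Ccne2, which encode the E cyclins that start DNA replication, had 0.90 and 0.82, Ccna2 0.39 and Cdk4 0.30. Ccne1 had 542 units in gene-trapped cells and 336 in revertant cells.

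Partners of the other members were measured as well. Of 15 subunits of CCR4-NOT and of PP2A or proteins that act with them, none was 2-fold apart and the median was 0.02. Cnot9 had 0.72, Cnot6 0.67, the PP2A subunit gene Ppp2r5d 0.56 and Ppp2r5c -0.38. With local background subtracted Cnot6 had -0.18 and Ppp2r5c 0.00656. Of 24 measured genes that control mTORC1, the pathway held back by Ddit4l and the sestrins, none was 2-fold apart in the main setting. Their median was 0.04. Akt1 had 0.65, the AMPK subunit gene Prkaa2 0.41, Sec13 0.36 and Rheb, the direct activator of mTORC1, -0.43. With local background subtracted Sec13 was at least 2-fold higher at 1.03, against 2.04% of all genes. Prkaa2 then had 0.31, Akt1 0.14 and Rheb 0.11. In the authors' table Rragb was at least 2-fold lower at -1.68, whereas it had -0.33 in the main setting. Its spot signal of 26.6 in gene-trapped cells was near the limit of 22.3.

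**Figure D5:**
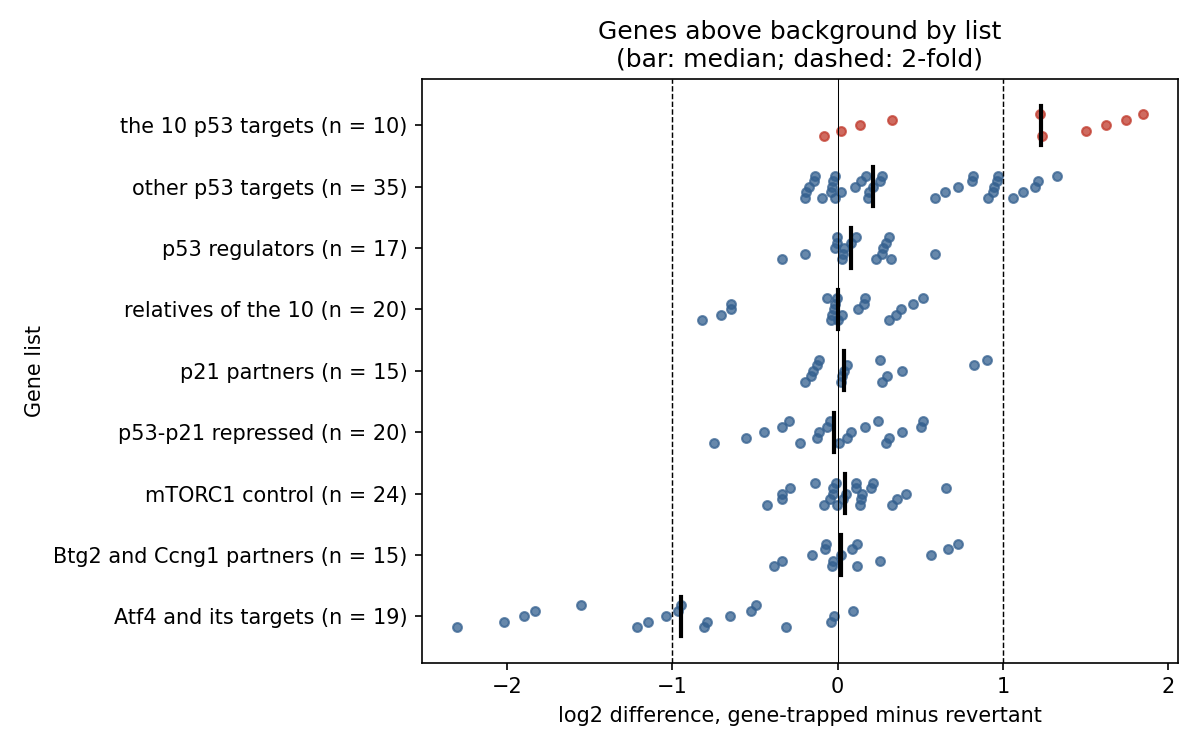
Log2 difference, gene-trapped minus revertant, of every gene above background on both arrays, by list. Points are genes, black bars are list medians, dashed lines mark 2-fold, and the 10 p53 targets are in red. The median is 1.23 for the 10 p53 targets, 0.21 for other p53 targets and -0.95 for Atf4 and its targets, and lies near 0 for the other 6 lists.

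Sesn2 and Gdf15 are also known targets of Atf4, the transcription factor of amino acid and endoplasmic reticulum stress, and values for Atf4 and its other targets are given beside them. Of 19 measured, 8 were lower in gene-trapped cells by 2-fold or more, 0 were higher to that extent, and 18 lay below 0. Over all genes 1.08% were lower by 2-fold or more and 46.6% lay below 0. Trib3, a pseudokinase gene, had a log2 difference of -2.30, with 49.5 units in gene-trapped and 440 in revertant cells. Stc2 had -2.02, Ddit3, which encodes the stress factor CHOP, -1.90, and Chac1, whose product degrades glutathione, -1.83. Atf4 itself had -0.52, with 2817 units in gene-trapped and 5017 in revertant cells. With local background subtracted 5 of the 19 were at least 2-fold lower, against 1.35% of all genes, and 1, Psat1, was at least 2-fold higher at 2.10, whereas it had -0.97 in the main setting. The median of the 19 was -0.95, whereas Sesn2 had 0.14 and Gdf15 0.02. The sequence TGATGNAA, a core of the composite site bound by Atf4, lay on neither strand in the 12 windows, against 3.97% of all windows. No relation of these genes to the members was tested.

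Markers of early mesoderm and of other cells that a sorted sample could hold were examined, and some of them differed between the arrays. The summed spot signal above the blank mean, before normalization, of 8 endothelial and blood markers was 645 in gene-trapped and 2178 in revertant cells, of which Flt1 alone made up 324 in gene-trapped and 1240 in revertant cells. Of these markers 7 were above background on both arrays, 3 of the 7 were at least 2-fold lower, against 1.08% of all genes, and the median log2 difference was -0.77. Flt1 had -1.53, Tek -1.31, Pecam1 -1.27 and Gata1 -0.77. Runx1 lay the other way at 0.25, and Cdh5 was not above background on both arrays.

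The sum of 8 OP9 stromal or fibroblast markers was 1438 in gene-trapped and 4276 in revertant cells, but Acta2 made up 81.7% of it in gene-trapped and 83.7% in revertant cells. Without Acta2 the sum of the other 7 was 263 in gene-trapped and 695 in revertant cells. Of the 8, 2 were at least 2-fold lower, against 1.08% of all genes, 5 lay below 0 and 3 above, and the median was -0.36. Col1a1 had -1.49, Acta2 -1.30, Col3a1 -0.79 and Col1a2 -0.41, while Cxcl12 had 0.20, Lum 0.06 and Thy1 0.02.

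For 8 early mesoderm markers the sum was 3943 in gene-trapped and 3046 in revertant cells. Without Etv2, the brightest of them on average, the sum was 2224 in gene-trapped and 2258 in revertant cells. Of the 8, 2 were at least 2-fold higher, against 0.335% of all genes, 4 lay above 0 and 4 below, and the median was 0.25. Mixl1 had 1.99, Etv2 1.30, T 0.76 and Kdr -0.65. Kdr, the gene of the sorted receptor, had -2.04 with local background subtracted.

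Of 6 listed markers of undifferentiated embryonic stem cells 4 had a named probe, and Pou5f1 and Sox2 had none. For those 4 the sum was 743 in gene-trapped and 1119 in revertant cells. Klf4 made up 83.9% of it in gene-trapped and 86.9% in revertant cells. After normalization 3 of the 4 lay above 0, the median was 0.05 and none was 2-fold apart, with Klf4 at -0.36, Zfp42 at 0.12, Esrrb at 0.07 and Nanog at 0.03. Zfp42 and Esrrb lay near the background limits on both arrays, which leaves little room for a difference. In the authors' table they had 0.68 and 0.42. With local background subtracted Klf4 had -1.56 and Nanog -0.45. The part of these marker differences in those of the 10 p53 targets was not tested.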

How the data were processed

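Total RNA of the gene-trapped and the revertant sample was amplified, labelled with Cy5 and put on TORAY arrays, 1 for each sample, per the labels' protocols. The deposited scanner files give a linear intensity per spot, the spot median, read at 3 gains and joined by least squares per the file headers; the authors' second table holds processed intensity with medians of 25.0 for gene-trapped and 25.0 for revertant cells. The software behind both is not given in the sources used here.

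Intensities were corrected with normexp (offset 50) in limma 3.58.1 and R 4.3.3, quantile-normalized and put on the log2 scale. Controls, blanks and 2 flagged probes were not carried further. The normalization was tested on simulated data. Tables were made with pandas 2.3.3 and numpy 2.4.6 in Python 3.11.15, and plots with matplotlib 3.10.9. Of 23472 probes, 16630 have 1 symbol in the platform annotation, 6842 none and 0 several. Symbols were updated through RefSeq synonyms (GRCm38.p6), and the probe with the highest mean spot median was kept for each gene. A gene was counted when its signal differed by at least 2-fold.

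The 10 genes, the gene lists, the 2-fold rule and the 11 alternatives were chosen with earlier results of these data known. The named genes are the members, their relatives above background, up to 4 genes per list with the largest absolute difference, Mdm2, Atf4, Ddit3, Kdr and AU019823. Outside that rule, genes that complete a count, go against a list's direction or were not above background were named after their values were seen, among them Gtse1, Ddb2, Cd82, Psat1, Runx1, Cxcl12, Lum, Thy1, Trp63, Trp73, Cdh5 and Ret. With 1 array per group, the number of arrays limits the precision and no test was possible.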

Additional observations from a re-analysis of the deposited data

Results flagged for a closer look

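The local background that the scanner recorded took no part in the main comparison, and it held signal at the spots of the p53 targets. At 10 of 10 spots on the gene-trapped array and at 10 of 10 on the revertant array it exceeded the mean of that column at blank spots by more than 2 SD. The blank means were 15.7 on the gene-trapped and 14.3 on the revertant array. The values beside the members ran from 19.8 (Gdf15) to 310 (Ccng1) on the gene-trapped array and from 20.2 (Gdf15) to 228 (Sesn2) on the revertant array.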

How the results depend on the processing

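No paired analysis was possible because only 1 array was made per group, and none could be left out for the same reason. The median log2 difference of the 10 genes was above 0 in all 11 alternatives: 1.10 with median scaling, 1.51 with offset 16, 1.48 without background correction, 1.75 in the authors' table and 0.60 with local background subtracted, and within 0.108 of the main 1.23 in the rest. The count past 2-fold was 2 with local background subtracted and 6 in every other alternative. Over all genes, higher and lower calls numbered 87 and 238 with offset 16, 84 and 227 without background correction, and 284 and 570 in the authors' table, and higher calls 280 with local background subtracted. Smaller offsets widen folds of dim genes by construction; for local background the cause was not tested. Scaling to the 75th percentile put the median of all genes at 0.15. The differences near 0 turned sign in 1 alternative each: Btg2 to -0.08 and Sesn2 to -0.25 with local background subtracted, Gdf15 to -0.00414 after position correction and Sesn1 to 0.03 with local background subtracted. The median of other p53 targets ran from 0.06 to 0.65 and that of Atf4 and its targets from -1.08 to -0.67. Signal over background limits Gdf15 and, in revertant cells, Ddit4l.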
